A study of Arabidopsis thaliana with 24 samples.

Results

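Transcript levels in water-treated Arabidopsis leaves were compared between 2 circadian times of treatment, ZT24 (subjective morning) and ZT36 (subjective evening). ZT, zeitgeber time, counts hours from a lights-on signal. The comparison takes the 6 arrays labelled water at ZT24 against the 6 labelled water at ZT36, out of 24 arrays in the series, and covers every probe set other than the array's own controls. In each arm, 3 arrays carry the label 0 h and 3 the label 3 h after treatment, and both are pooled. ZT24 and ZT36 name the time of treatment, so by label the 3 h arrays were taken 3 h later. Each arm thus spans more than a single time of day.

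All groups were true leaves of wild-type plants aged 23 days, raised on soil under a day length of 12 h, moved into constant light 24 h before treatment and kept there afterwards. The 4 groups used here are therefore water ZT24 0 h, water ZT24 3 h, water ZT36 0 h and water ZT36 3 h, each with 3 biological replicates. The remaining 12 arrays are labelled salicylic acid (SA, an immune hormone, given at 1 mM) at the same times. The labels do not say how many plants a sample held, and leaves are mixtures of cell types, so fewer cells of a type and less RNA per cell cannot be told apart. With the same 24 h given for both arms, the time of day at the move into constant light differed with ZT as labelled. Its part cannot be told apart from that of ZT.

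The plant circadian clock is a set of interlocked transcriptional loops that keeps running in constant light. Morning-expressed components repress evening genes such as GIGANTEA, and evening components in turn repress the morning genes. In leaves the clock times photosynthesis, starch turnover, growth, cold tolerance and defence, so many transcripts of these pathways are known to cycle.

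Each value is the log2 of a microarray signal relative to that probe set's own median over the 24 arrays. A value of 0 is therefore that median and not an absence of signal, and levels of different genes cannot be compared. Differences are ZT24 minus ZT36 on the log2 scale, so a positive one means higher at ZT24. Named genes number 13286, each read from 1 probe set, while 9310 of the 22746 tested probe sets stayed unnamed. Of 407 entries in textbook gene lists, 66 had a named probe set. Most central clock genes were therefore not analysed here, and group counts below cover only members with a named probe set.

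Time of day separated the arrays before any gene was tested. The first principal component held 80.2% of the variance of the 12 water arrays, with scores of 46.3 to 53.7 at ZT24 against -63.7 to -41.3 at ZT36. Over all probe sets, arrays of the same group correlated at 0.75 to 0.91. Arrays of the same ZT with the other time-after-treatment label correlated at 0.65 to 0.88, and arrays of opposite ZT at -0.54 to -0.36. These correlations describe 12 arrays whose values share 1 centring. The spread within an arm was slightly lower at ZT24, where the median SD over probe sets was 0.11, against 0.13 at ZT36, and 59.9% of probe sets had the larger SD at ZT36.

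**Figure D1:**
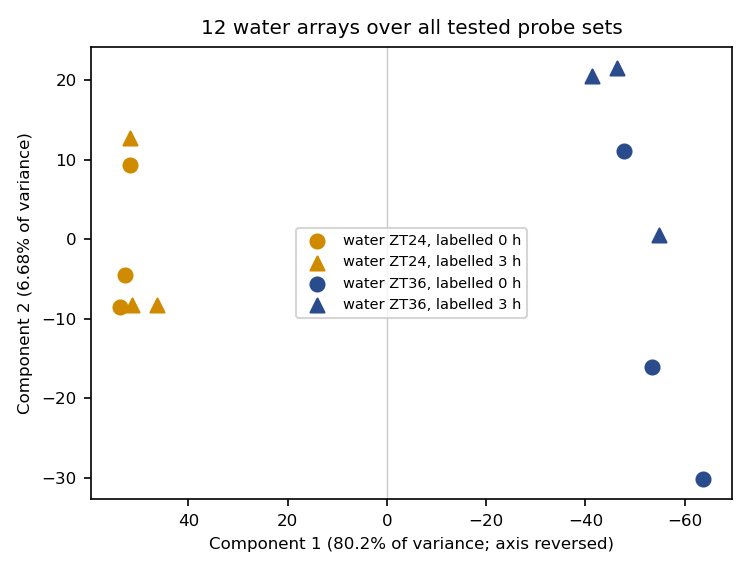
Scores of the 12 water arrays on the first 2 principal components of all tested probe sets, with the share of variance on each axis and the first axis reversed so that ZT24 stands on the left. The 6 ZT24 arrays have first-component scores of 46.3 to 53.7 and the 6 ZT36 arrays of -63.7 to -41.3, and the 0 h and 3 h labels do not separate along that axis.

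The time-after-treatment label went with few differences in the water arrays. The limma test between arrays labelled 3 h and arrays labelled 0 h called 0 probe sets at ZT24 (0.00%) and 2 at ZT36 (0.00879%), while 728 and 3049 had an unadjusted p under 0.05. The ZT36 count rested on single arrays, as it was 705 without replicate 1 of water ZT36 0 h and 138 without replicate 3 of water ZT36 3 h. By contrast, arrays labelled SA at 0 h differed from water at 0 h in 3688 probe sets at ZT24 (16.2%) and 6603 at ZT36 (29.0%). Arrays labelled 0 h thus stood apart between treatments although the label gives no time after treatment. Single genes divided the arrays along other labels. COR27 was at most -1.08 in all 12 ZT24 arrays of the series and at least 1.08 in all 12 ZT36 arrays. UGT76B1, an SA-responsive glucosyltransferase gene, was 7.92 to 8.64 in the 6 arrays labelled SA 3 h, against -0.34 to 0.52 in the other 18. At ZT36, GI was 2.83 to 3.27 in the water arrays of both time labels, but at most 0.96 in the SA arrays of both. MCCA, a gene of leucine breakdown, was 1.97 to 4.13 in those water arrays and at most 0.21 in those SA arrays. In GI and MCCA at ZT36, water 3 h thus lay with water 0 h, and SA 0 h with SA 3 h. In UGT76B1, SA 0 h instead lay with the water arrays and apart from SA 3 h. GRX480, an SA-induced glutaredoxin gene, did the same, at 3.41 to 4.78 in SA 3 h against -0.61 to 0.10 in the other 18 arrays. Whether the water 3 h and SA 0 h labels match the arrays was not tested, so results are for arrays as labelled. The main ones are also given for the 0 h arrays alone.

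Differences between subjective morning and evening were widespread. Of 22746 probe sets, 11566 passed an adjusted p of 0.05 (50.8%), 5492 of them higher at ZT24 (24.1%) and 6074 lower (26.7%). The test was limma's moderated test across all arrays with Benjamini-Hochberg adjustment. With the 0 h arrays alone, 9311 probe sets passed (40.9%, and 37.8% of named genes), and with the 3 h arrays alone 8658 did (38.1%). Of the 11566 pooled calls, 8944 were also called with the same sign at 0 h.

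Most of these differences were small. Their median size was 0.46 on the log2 scale, and the median difference over all probe sets was 0.03. A size of at least 1, which is a 2-fold difference, was reached by 1036 called probe sets in the direction of ZT24 and 998 in that of ZT36 (8.94% together). At least 4 on the log2 scale, or 16-fold, was reached by 37 and 32. The 6 values at ZT24 lay wholly above or wholly below the 6 at ZT36 for 32.5% of all probe sets.

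Among named genes, 6321 of 13286 passed (47.6%), with 2985 higher at ZT24 (22.5%) and 3336 lower (25.1%). These shares are the background for every gene group below, and the median over named genes was 0.03. In 29.7% of named genes the arms did not overlap, and 7.47% were called with a difference of at least 1.

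Some calls of genes named below (ACLB-1 and ACLA-1 not examined) were lost when only 3 arrays an arm were used, each with its sign kept. With the 0 h arrays alone these were 13 genes: SHB1, AT1G72390, AT2G46140, AtLEA4-1, MSRB9, MSRA5, RR16, GRX480, BIK1, XTH19, psaA, psaB and FMA. With the 3 h arrays alone they were 17: SHB1, AT4G24450, PRK, NdhS, GSA1, AT4G33150, MSRB9, MSRA5, GH3.9, SLY1, BRH1, ETP2, RTE1, ARR15, XTH16, NDB2 and rbcL.

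Clock and light-signalling genes included the named transcripts with some of the widest swings, and most of those that moved were lower at ZT24. Of 12 measured, 2 were higher at ZT24, 7 lower and 3 did not pass, with a median of -0.34. GI, the evening-expressed clock component that also promotes flowering, had values of -1.45, -1.18 and -0.76 (lowest, median and highest) at ZT24, against 2.83, 2.97 and 3.27 at ZT36. The arms were far apart, and every ZT24 value was below the 24-array median. The difference was -4.14 ± 0.14 (SE, 6 against 6 arrays, limma adjusted p = 1.6e-15), or 17.6-fold higher at ZT36.

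COR27, a cold-regulated repressor that acts on clock genes, had values of -2.32, -2.15 and -1.08 at ZT24, against 3.71, 4.07 and 4.19 at ZT36. Its arms did not overlap, and its difference of -5.99 ± 0.16 was 63.5-fold (limma adjusted p = 2.3e-17). HYH, a bZIP factor and close homologue of HY5 in light signalling, went the other way. Its values were 0.45, 0.56 and 0.80 at ZT24, against -4.09, -3.81 and -3.35 at ZT36. All ZT36 arrays were low, and the difference was 4.36 ± 0.11, or 20.5-fold higher at ZT24 (limma adjusted p = 2e-17).

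Smaller members of the group were mostly lower at ZT24. FHL, which carries phytochrome A into the nucleus, differed by -1.31 ± 0.17, and TIC, a clock regulator, by -0.93 ± 0.09. FIO1, an RNA methyltransferase that affects clock period, differed by -0.56, SPY, an O-fucosyltransferase that represses gibberellin signalling, by -0.39, and AT1G72390 (PHL, a phytochrome B-related flowering regulator) by -0.29. SHB1 was higher by 0.16 ± 0.06, a call that ended when any 1 of 7 arrays was left out, and with the 0 h or the 3 h arrays alone (adjusted p = 0.062 and 0.33 by limma). XCT and LIP1, known for effects on clock period, and AT4G14480 (BLUS1, a kinase of blue-light stomatal opening) did not pass, with differences between -0.06 and -0.05.

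Also read with the clock genes were 3 loci listed without a gene name in the annotation used here. AT4G33980 had values of -1.94, -1.89 and -1.82 at ZT24, against 3.57, 4.02 and 4.35 at ZT36. Its 6 ZT24 arrays lay close together and far below the ZT36 arrays, and the difference was -5.93 ± 0.08 (limma adjusted p = 1.1e-21). AT1G69570 was higher at ZT24 by 1.19 ± 0.09 and AT5G52660 by 0.38 ± 0.06.

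**Figure D2:**
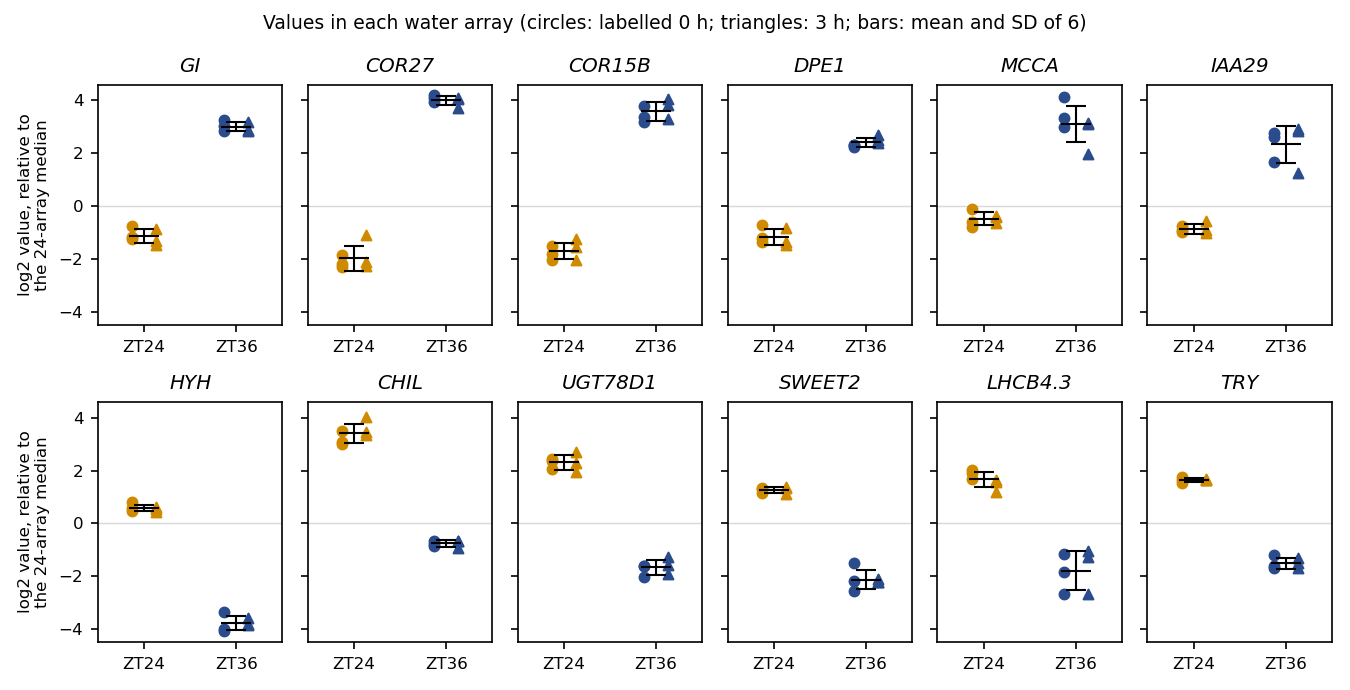
Log2 values of 12 genes in each water array relative to the gene's median over 24 arrays, ZT24 on the left of each panel and ZT36 on the right. Circles are arrays labelled 0 h, triangles arrays labelled 3 h, and bars the mean and SD of 6 arrays. The upper 6 genes are lower at ZT24 and the lower 6 higher, and in none of the 12 do the arms overlap. GI, COR27, COR15B, HYH, CHIL and UGT78D1 belong to the 12 largest differences each way, a list that required arms without overlap.

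The 12 named genes with the largest decreases at ZT24 spanned -6.24 to -4.14. AT1G07050 had the largest, with -2.12, -2.06 and -1.94 at ZT24 against 3.93, 4.22 and 4.38 at ZT36, a 75.6-fold difference. AT1G56300 followed at -6.23, and AT4G16146, AT3G15450, AT4G30650, AT5G62360 and AT3G62550 lay between -5.65 and -4.23. CCL, named for its likeness to a clock-regulated RNA-binding protein transcript, differed by -4.15 ± 0.12. COR27, AT4G33980, GI and COR15B complete the 12.

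The 12 largest increases at ZT24 spanned 3.97 to 5.72. AT2G27420 had values of 4.80, 5.41 and 5.81 at ZT24, against -0.55, -0.31 and -0.19 at ZT36, a 52.7-fold difference. AT3G15310, AT2G15020 and AT5G42760 lay between 5.02 and 5.30. TBL26, of a family that acetylates cell wall polysaccharides, differed by 4.74 ± 0.22. AT5G03350 was the least even of the 12, with -4.85, -3.45 and -1.72 at ZT36 and an SE of 0.27. AT5G54130, AT1G64500 and AT3G48460 lay between 4.00 and 4.10, and HYH, CHIL and UGT78D1 are described with their groups. Both probe sets of AT5G54130 were higher at ZT24, by 4.10 and 4.86. The unused second probe set of AT1G72390 differed by 0.0049 (limma adjusted p = 0.95), unlike the one reported above.

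Cold- and dehydration-induced genes were mostly lower in subjective morning. Of 13 measured, 7 were lower at ZT24, 2 higher and 4 did not pass, with a median of -0.42. COR15B and COR15A encode chloroplast proteins that protect membranes during freezing. COR15B had -2.03, -1.67 and -1.26 at ZT24, against 3.19, 3.57 and 4.05 at ZT36, a difference of -5.27 ± 0.20 (limma adjusted p = 4.9e-15). COR15A differed less, by -2.72 ± 0.29.

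The dehydrins of the group, hydrophilic proteins that accumulate in cold or drying tissue, behaved alike in direction. COR47 differed by -3.66 ± 0.18 and AT1G54410 (HIRD11) by -1.22 ± 0.06. LTI30 had -0.69, -0.54 and -0.47 at ZT24, against 1.44, 3.79 and 4.63 at ZT36. Its ZT36 arrays were widely scattered, and the difference of -4.07 carried the largest SE of the genes described, 0.48. XERICO, a RING protein that raises abscisic acid, differed by -1.78 ± 0.09, and AtLEA4-1 by -0.42 ± 0.11.

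AT2G44060 and AT2G46140, both late embryogenesis abundant proteins, were the 2 higher members, at 0.80 and 0.29. STZ, a zinc-finger repressor induced by many stresses, did not pass in the pooled test (0.31 ± 0.17, adjusted p = 0.13). Its difference was -0.68 in the 0 h arrays and 1.30 in the 3 h arrays, opposite in sign.

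Flavonoid genes were higher in subjective morning at several steps. Of 15 flavonoid and phenylpropanoid genes, 7 were higher at ZT24, 2 lower and 6 did not pass, with a median of 0.19. CHIL, a chalcone isomerase-like protein that raises flavonoid output, had 3.01, 3.41 and 4.02 at ZT24, against -0.94, -0.72 and -0.65 at ZT36. The difference was 4.16 ± 0.13, or 17.9-fold (limma adjusted p = 2.3e-16).

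UGT78D1 and UGT78D2 attach rhamnose and glucose to flavonols. UGT78D1 had 1.94, 2.34 and 2.72 at ZT24, against -2.03, -1.60 and -1.26 at ZT36, without overlap. Its difference was 3.97 ± 0.16 and that of UGT78D2 was 2.00 ± 0.09. HCT, a lignin-branch acyltransferase, differed by 1.03 ± 0.09. The 2 lower members act on phenylpropanoids other than flavonols: UGT72E1 at -0.94 ± 0.11 and UGT84A3 at -0.64 ± 0.14. DFR, which leads to anthocyanins, did not pass (0.34 ± 0.22), and 1 ZT24 array at 1.61 stood above the other 5, the highest of which was 0.24. The count of higher members in this group was 4 with the 0 h arrays alone.

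Starch genes moved in both directions. Of 6 measured, 3 were lower at ZT24, 2 higher and 1 did not pass (median -0.22). Both named breakdown genes with large differences were lower. DPE1, the plastid disproportionating enzyme that recycles maltotriose, had -1.46, -1.28 and -0.72 at ZT24, against 2.23, 2.37 and 2.69 at ZT36, a difference of -3.57 ± 0.11. AT5G26570 (PWD, phosphoglucan water dikinase, which loosens the granule surface) differed by -1.92 ± 0.09, and AT4G24450, listed in RefSeq under the same name, by -0.37 ± 0.13. The AT4G24450 call ended when any 1 of 4 arrays was left out, after quantile normalization (limma adjusted p = 0.074) and with the 3 h arrays alone (-0.16, adjusted p = 0.55), which leaves 2 lower members.

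Both higher members belong to synthesis. APL3, a large subunit of ADP-glucose pyrophosphorylase, differed by 1.62 ± 0.22, and SBE2.2, a starch branching enzyme, by 0.85 ± 0.08. APL4, another large subunit, did not pass (-0.07 ± 0.06).

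Sugar transporters and sucrose synthesis genes numbered 21, of which 8 were higher at ZT24, 2 lower and 11 did not pass (median 0.10). SWEET proteins let sugars through membranes. SWEET2 had 1.1, 1.33 and 1.36 at ZT24, against -2.55, -2.19 and -1.48 at ZT36, a difference of 3.39 ± 0.15. SWEET13, which exports sucrose toward the phloem, differed by 1.95 ± 0.16, and the vacuolar SWEET17 by 1.41 ± 0.26 with overlapping arms. ATSPS4F, a sucrose-phosphate synthase, differed by 2.07 ± 0.24.

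The 2 lower members both sit in the vacuolar membrane, as does SWEET17, which was higher. TMT1, which loads monosaccharides into the vacuole, differed by -2.09 ± 0.06. SWEET16, named after its values were seen, differed by -1.07 ± 0.10.

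Photosynthesis genes of the nucleus were mostly higher in subjective morning, by modest amounts. Of 28 photosystem, electron transport and carbon fixation genes, 19 were higher at ZT24, 3 lower and 6 did not pass, with a median of 0.32. LHCB4.3, a minor light-harvesting protein of photosystem II, had 1.19, 1.66 and 2.03 at ZT24, against -2.68, -1.55 and -1.05 at ZT36. Its difference was 3.45 ± 0.25, while its paralogue LHCB4.2 differed by 0.51 ± 0.09 and LHCB4.1 did not pass (-0.02 ± 0.05).

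CaS, a thylakoid calcium-sensing protein, differed by 1.42 ± 0.14. Calvin cycle members included SBPASE (1.07 ± 0.13), PRK (0.34 ± 0.08) and RCA, the Rubisco activase (0.49 ± 0.05). AT5G58330, the chloroplast NADP-malate dehydrogenase, differed by 0.66 ± 0.06. The 3 lower genes were PIFI, which acts in chlororespiration (-1.02 ± 0.08), NdhS, a subunit of the chloroplast NADH dehydrogenase-like complex (-0.32), and LPA2, a photosystem II assembly factor (-0.31).

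Pigment synthesis moved in both directions. Of 17 tetrapyrrole and carotenoid genes, 10 were higher at ZT24, 4 lower and 3 did not pass, with a median of 0.22. PORB, which makes chlorophyllide in light, had the largest difference of the 17, with -1.87, -1.58 and -0.55 at ZT24 against 0.40, 0.84 and 1.28 at ZT36. It differed by -2.24 ± 0.21, and HEMA2, a glutamyl-tRNA reductase, by -0.77 ± 0.09. LYC, the lycopene beta-cyclase of carotenoid synthesis, was higher by 1.20 ± 0.07, followed by HEME1 (0.55) and GSA1 (0.52) of early tetrapyrrole synthesis.

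Genes encoded in the plastid genome moved in both directions. Of 69 measured, 12 were higher at ZT24, 10 lower and 47 did not pass, with a median of 0.01. The largest differences were in ribosomal, polymerase and maturase genes: rps16 (1.76 ± 0.15), matK (0.91 ± 0.13), rps18 (0.89 ± 0.20) and rpoC2 (0.86 ± 0.17). The large Rubisco subunit gene rbcL differed by 0.65 ± 0.13. The photosystem I core genes psaA (-0.58 ± 0.14) and psaB (-0.28 ± 0.06) were lower, and psbA did not pass (-0.15 ± 0.10). With the 0 h arrays alone the counts were 15 higher and 5 lower.

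Amino acid breakdown genes were nearly all lower in subjective morning. Of 10 genes of branched-chain amino acid and lysine degradation, 9 were lower at ZT24, 0 higher and 1 did not pass, with a median of -1.35. MCCA, the biotin-bearing subunit of methylcrotonyl-CoA carboxylase in leucine breakdown, had -0.79, -0.50 and -0.09 at ZT24, against 1.97, 3.12 and 4.13 at ZT36. The difference was -3.59 ± 0.21, or 12.0-fold (limma adjusted p = 1.1e-11), and MCCB, the other subunit, differed by -1.55 ± 0.13.

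IVD, isovaleryl-CoA dehydrogenase, differed by -2.40 ± 0.18 and ALDH6B2, of valine breakdown, by -2.24 ± 0.09. AT4G33150 (LKR/SDH, the first enzymes of lysine breakdown) was the least even, with 0.36, 1.64 and 4.13 at ZT36 and a difference of -2.08 ± 0.42. ETFQO, which passes electrons from these dehydrogenases to the respiratory chain, differed by -1.15 ± 0.13. ATBCAT-5, an aminotransferase, did not pass (0.07 ± 0.06).

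All 11 autophagy genes measured were lower at ZT24, with a median of -0.80. Autophagy delivers cell contents to the vacuole, and ATG8 proteins, which coat the forming vesicles, made up most of the group. ATG8B differed by -1.27 ± 0.11, ATG8D by -1.22 ± 0.08, ATG8E by -1.03 ± 0.17, APG8H by -0.86 ± 0.08 and ATG8F by -0.84 ± 0.12. ATG8D had -0.74, -0.48 and -0.10 at ZT24, against 0.53, 0.78 and 1.04 at ZT36, so no array of either arm reached the other. All 11 were also called lower with the 0 h arrays alone.

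**Figure D3:**
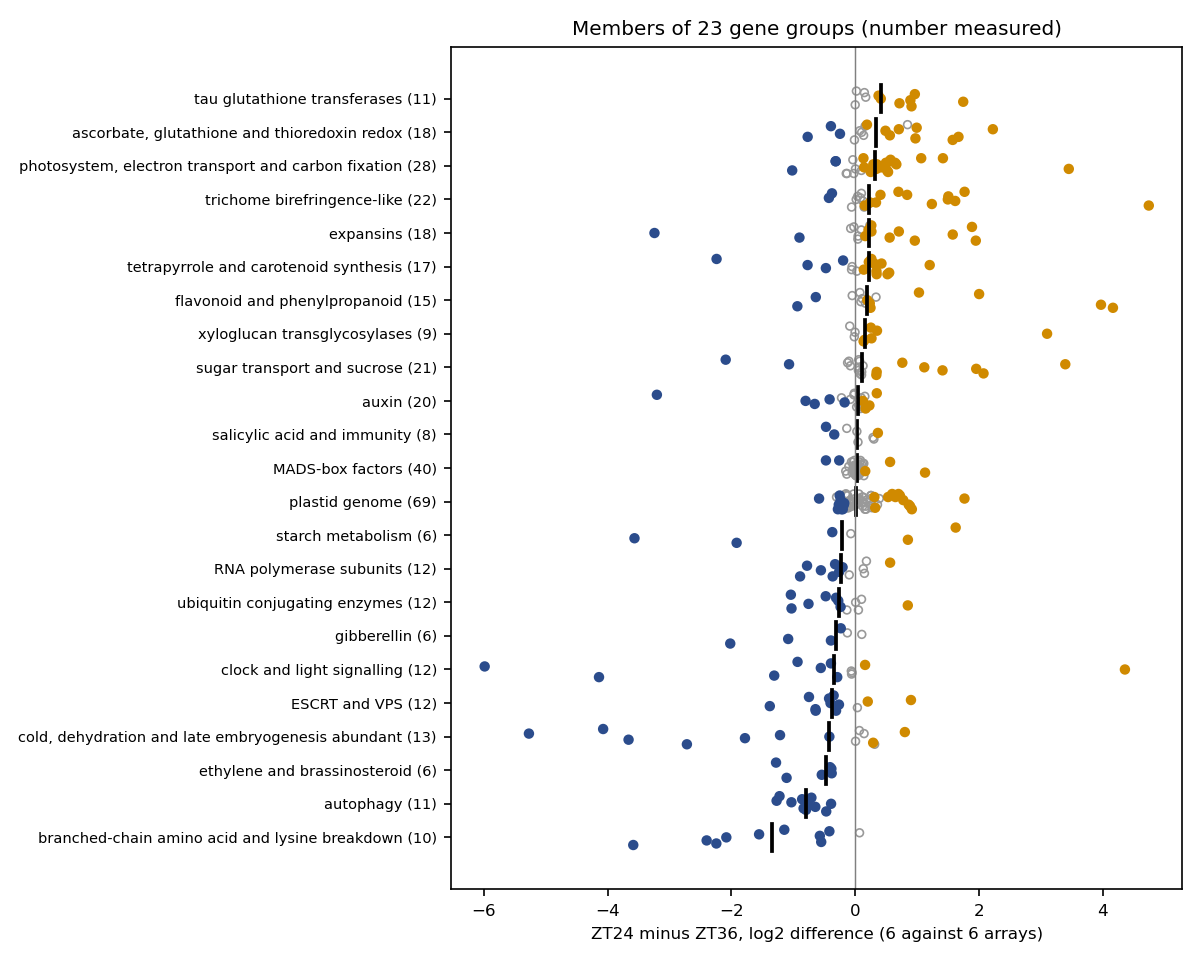
ZT24 minus ZT36 differences (log2) of the measured members of 23 gene groups, ordered by group median (black bar). Filled points passed an adjusted p of 0.05, orange where higher at ZT24 and blue where lower, and open grey points did not pass. Amino acid breakdown (median -1.35) and autophagy (median -0.80) lie lowest, and the tau glutathione transferases (median 0.41) highest.

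Antioxidant and redox genes were more often higher at ZT24. Of 18 ascorbate, glutathione and thioredoxin genes, 9 were higher, 3 lower and 6 did not pass (median 0.34). The glutathione reductases GR1, of the cytosol and peroxisome, and GR, of plastids and mitochondria, differed by 2.22 ± 0.07 and 1.57 ± 0.10. GR1 had 0.71, 0.77 and 0.83 at ZT24, against -1.67, -1.43 and -1.26 at ZT36. VTC4, of ascorbate synthesis, differed by 1.67 ± 0.09, and the chloroplast redox regulators TRXF2 and NTRC by 0.99 ± 0.09 and 0.97 ± 0.07. The 3 lower were the glutaredoxins GRXC1 (-0.77) and GRXC2 (-0.39) and the thioredoxin ATHM2 (-0.25).

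Methionine sulfoxide reductases, which repair oxidised methionine, were higher at ZT24 in 4 of 5 cases (median 0.40). MSRB6 and MSRB5 differed by 1.93 ± 0.16 and 1.88 ± 0.17. MSRB9 (0.40 ± 0.16) and MSRA5 (0.23 ± 0.09) passed narrowly, and their calls ended when any 1 of 8 and of 5 arrays was left out. MSRB3 did not pass (-0.05 ± 0.09). The tau glutathione transferases, which conjugate glutathione to reactive compounds, had 7 of 11 members higher, 0 lower and 4 that did not pass (median 0.41). GSTU20 differed by 1.74 ± 0.20, GSTU16 by 0.96, GSTU27 by 0.91 and GSTU18 by 0.89.

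Hormone groups differed from one another. All 6 ethylene and brassinosteroid genes measured were lower at ZT24, with a median of -0.47. EIN3, the central ethylene transcription factor, had -0.92, -0.66 and -0.51 at ZT24, against 0.12, 0.43 and 0.71 at ZT36, a difference of -1.11 ± 0.08. ETP2, an F-box protein that targets the ethylene regulator EIN2, differed by -0.41 and RTE1, an ethylene receptor partner, by -0.38. On the brassinosteroid side BIM1, a transcription factor partner, differed by -1.28 ± 0.11, BRH1, a brassinosteroid-responsive RING gene, by -0.54 and the receptor BRL1 by -0.39. With the 3 h arrays alone, 3 of the 6 calls ended: BRH1 (-0.29, limma adjusted p = 0.053), ETP2 (-0.27, 0.13) and RTE1 (-0.22, 0.092).

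Gibberellin signalling had 4 of 6 genes lower at ZT24, 0 higher and 2 that did not pass (median -0.31). The receptors GID1A and GID1C differed by -2.02 ± 0.06 and -1.08 ± 0.12, while the third receptor, GID1B, did not pass (-0.13 ± 0.18). GID1A had -1.03, -0.90 and -0.75 at ZT24, against 1.04, 1.13 and 1.24 at ZT36. SLY1, the F-box protein that removes DELLA repressors, differed by -0.23 ± 0.08, a call that ended without replicate 3 of water ZT36 3 h (-0.17, adjusted p = 0.051).

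Auxin genes were mixed, with 4 higher at ZT24, 5 lower and 11 not passing of 20 (median 0.04). IAA29, a short-lived auxin-response repressor tied to shade and elongation growth, had -1.03, -0.91 and -0.56 at ZT24, against 1.26, 2.70 and 2.94 at ZT36. Its difference was -3.21 ± 0.24. HAT2, an auxin-induced homeobox gene, differed by -0.80, WES1, which conjugates auxin to amino acids, by -0.66, IAA18 by -0.41 and GH3.9 by 0.35.

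Among 8 jasmonate genes, JMT, which makes methyl jasmonate, differed by 2.17 ± 0.10 and the transcription factor MYC4 by 1.68 ± 0.20. Its paralogue MYC3 was lower, at -0.55 ± 0.11, and the other 5 did not pass. Of 6 cytokinin response regulators, ARR15 was higher (0.41 ± 0.13), RR16 lower (-0.66 ± 0.17), and 4 did not pass.

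Of 8 salicylic acid and immunity genes, 3 passed (37.5%), too few genes to set that share apart from the 47.6% of all named genes. Of the 8, 1 was higher at ZT24, 2 lower and 5 did not pass, with a median of 0.03. The arms overlapped in all 8, where 29.7% of all named genes had arms that did not. SAG101, a partner of the immune regulator EDS1, differed by -0.47 ± 0.11 and BIK1, a kinase downstream of immune receptors, by -0.34 ± 0.11. GRX480, an SA-induced glutaredoxin, differed by 0.37 ± 0.09. With the 0 h arrays alone the calls of GRX480 (0.21, limma adjusted p = 0.22) and BIK1 (-0.27, adjusted p = 0.17) ended. The SA-modifying enzymes UGT76B1, UGT74F1 and BSMT1 did not pass, at 0.04 ± 0.09, 0.03 ± 0.07 and 0.29 ± 0.32. The immune receptor EFR (-0.14 ± 0.11) and WRKY53 (0.30 ± 0.20) did not pass either.

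Cell wall genes were more often higher in subjective morning. Of 22 TBL genes, 12 were higher at ZT24, 2 lower and 8 did not pass (median 0.23). After TBL26, the largest were TBL28 (1.77 ± 0.09), TBL37 (1.61 ± 0.15) and TBL38 (1.50 ± 0.20), and the 2 lower were TBL32 (-0.43) and TBL18 (-0.38). Of 18 expansins, which loosen walls during growth, 10 were higher, 2 lower and 6 did not pass (median 0.22).

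EXLB1, EXPA4 and EXPB3 differed by 1.95 ± 0.09, 1.89 ± 0.18 and 1.57 ± 0.11. EXLA1 went against them, with -0.43, -0.08 and 0.27 at ZT24 against 2.66, 3.29 and 3.76 at ZT36, a difference of -3.24 ± 0.24, and EXPA16 differed by -0.90. Of 9 xyloglucan transglycosylases, which cut and rejoin wall polymers, 6 were higher, 0 lower and 3 did not pass (median 0.15). XTH32 stood far above the other members at 3.10 ± 0.18. XTH16 differed by 0.26 ± 0.07, and XTH19, at 0.35 ± 0.14, lost its call when any 1 of 8 arrays was left out. With the 0 h arrays alone 2 of the 9 passed.

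Families of membrane sorting and protein turnover differed in direction. Of 12 ESCRT and vacuolar sorting genes, which sort membrane proteins for degradation, 9 were lower, 2 higher and 1 did not pass (median -0.37). VPS20.1 differed by -1.38 ± 0.10 and VPS46.2 by -0.75 ± 0.07, against VPS2.2 at 0.90 ± 0.10. Of 12 ubiquitin-conjugating enzymes, 7 were lower, 1 higher and 4 did not pass (median -0.26). UBC22 and UBC16 differed by -1.04 ± 0.07 and -1.03 ± 0.08, and UBC18 was the 1 higher member, at 0.85 ± 0.07. Of 12 ubiquitin-specific proteases, 6 were lower, 1 higher and 5 did not pass (median -0.14). Of 9 plant U-box ubiquitin ligases, 4 were higher, 3 lower and 2 did not pass (median 0.17).

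Genes of protein folding in the endoplasmic reticulum gave 7 lower, 2 higher and 5 not passing of 14 (median -0.17). The derlins DER2.2 and DER2.1, which help remove misfolded proteins, differed by -1.12 ± 0.06 and -1.01 ± 0.11. ATERDJ2A, of protein import, differed by -0.61. The 2 higher members were the lectin chaperone CRT1b, a calreticulin (1.14 ± 0.13), and the co-chaperone ATERDJ3B (0.97 ± 0.15). RNA polymerase subunits gave 7 lower, 1 higher and 4 not passing of 12 (median -0.23), led by NRPE7 (-0.89 ± 0.08) and NRPA2 (-0.78 ± 0.09), with NRPB9B higher (0.56 ± 0.11).

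Respiratory genes and nitrogen transporters leaned higher. Of 7 respiratory chain genes, 4 were higher at ZT24, 0 lower and 3 did not pass (median 0.33). CYTC-2, a cytochrome c, had 0.73, 1.01 and 1.34 at ZT24, against -1.75, -1.47 and -1.25 at ZT36, a difference of 2.52 ± 0.12. NDB2, an external NADH dehydrogenase, differed by 0.75 ± 0.17. Of 14 isocitrate dehydrogenase, succinate dehydrogenase and ATP citrate lyase genes, 6 were higher, 2 lower and 6 did not pass (median 0.09). Subunits of the lyase, which makes cytosolic acetyl-CoA, split: ACLA-3 differed by -1.52 ± 0.11, but ACLB-1 by 0.56 ± 0.09 and ACLA-1 by 0.40 ± 0.05. Among 10 members of the nitrate and peptide transporter family, 5 were higher and 1 lower (median 0.18), with AT3G21670 (NPF6.4) at 1.64, AT1G68570 (NPF3.1) at 1.54 and AT2G26690 (NPF6.2) at 1.13.

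Large enzyme families split in both directions. Of 47 UDP-glycosyltransferases, 15 were higher at ZT24, 10 lower and 22 did not pass (median 0.08), with UGT85A5 (-2.28 ± 0.08) and UGT73B1 (-2.20 ± 0.13) the largest decreases. Of 20 beta-glucosidases, 3 were higher, 8 lower and 9 did not pass. BGLU40 differed by 2.93 ± 0.16 and BGLU44 by -2.42 ± 0.17. Of 29 serine carboxypeptidase-like genes, 10 were higher and 4 lower, with scpl46 at 2.77 ± 0.09 and SCPL49 at -1.76 ± 0.08. The MADS-box transcription factors, known from flower and seed development, had 3 higher, 2 lower and 35 not passing of 40 (median 0.03), fewer calls than the 47.6% of all named genes.

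Markers of particular leaf cells and of other organs were examined for shifts in sample makeup. Centred values do not show whether a marker is present, so neither leaf identity nor the absence of other organs could be read from them. Of 15 flower and pollen markers, 1 was higher at ZT24, 2 lower and 12 did not pass (median -0.05). Their mean per array lay between -0.0034 and 0.048 at ZT24, against -0.0059 and 0.16 at ZT36, so the arms overlapped. Of 5 seed markers, 1 was higher, BETA-VPE (1.26 ± 0.10), a vacuolar processing enzyme. The other 4 did not pass, and the median difference of the 5 was 0.02. The mean of the 5, which includes BETA-VPE, lay between 0.10 and 0.24 at ZT24, against -0.14 and 0.0026 at ZT36, without overlap. The root marker PYK10 did not pass (0.10 ± 0.18). Of 4 stomatal markers, FMA, the last factor of guard cell formation, was lower (-0.24 ± 0.08), while SPCH, MUTE and STOMAGEN did not pass (-0.02, 0.01 and 0.52). The mean of the 4 lay between -0.0082 and 0.24 at ZT24, against -0.21 and 0.29 at ZT36. The FMA call ended without replicate 2 of water ZT36 0 h (-0.19, adjusted p = 0.056).

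TRY, a MYB repressor of trichome formation and the 1 trichome gene measured, had 1.52, 1.64 and 1.76 at ZT24, against -1.70, -1.56 and -1.19 at ZT36. The difference was 3.15 ± 0.12 (limma adjusted p = 9.7e-15). The part of cell-type makeup in the differences above was not tested.

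Few probe sets had a time difference that depended on the time-after-treatment label. The test of the 3 h difference minus the 0 h difference called 2 probe sets of 22746 (0.00879%), while 2002 had an unadjusted p under 0.05. AT5G49640 was the 1 named gene, with -0.94 in the 0 h arrays and -0.21 in the 3 h arrays (limma adjusted p = 0.038 for the change of 0.72 ± 0.11). The count was 58 without replicate 1 of water ZT36 0 h and 0 without several other arrays, so it rests on single arrays. STZ came close (adjusted p = 0.061). No pooled call with a size of at least 1 had opposite signs at 0 h and 3 h, and 60 of the smaller calls did. The pooled difference is the mean of the 0 h and 3 h differences, so a size of at least 1 leaves little room for opposite signs.

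**Figure D4:**
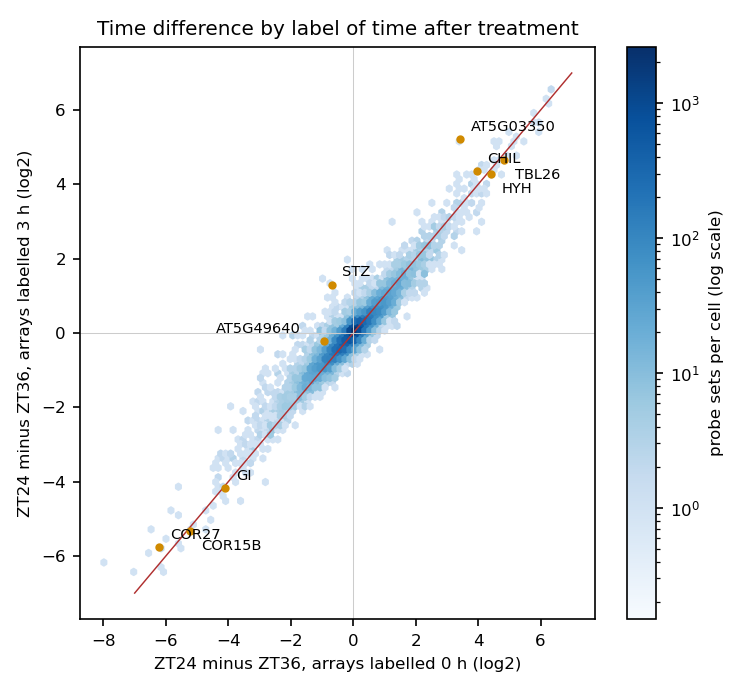
ZT24 minus ZT36 differences (log2) of all tested probe sets in the arrays labelled 0 h (horizontal) and 3 h (vertical), shaded by the number of probe sets per cell on a log scale. The line marks equal differences. No pooled call with a size of at least 1 lies on opposite sides of 0, and STZ (-0.68 and 1.30), which was not called, does. The pooled difference is the mean of both axes, which leaves little room for opposite signs at that size.

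The arrays labelled SA gave ZT24 minus ZT36 differences from separate samples, 3 against 3 at each time label. At 0 h, arrays labelled SA differed from water in 16.2% of probe sets at ZT24 and 29.0% at ZT36. They are therefore not a repeat of the water contrast, and their values are for arrays as labelled. At 0 h, 5563 probe sets passed (24.5%), and at 3 h 6358 did (28.0%), a number that was 3443 after quantile normalization. Of the 11566 water calls, 30.8% were called with the same sign in the SA 0 h arrays, which is 64.1% of the SA 0 h calls. For SA 3 h these shares were 32.4% and 58.9%. Opposite signs occurred in 575 and 763 probe sets. The difference between the water and SA contrasts was not itself tested.

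Values side by side, for arrays as labelled, were uneven between genes. COR27 differed by -5.99 in water, -4.45 in SA 0 h and -3.57 in SA 3 h, and AT4G33980 by -5.93, -4.16 and -3.88. GI differed by -4.14 in water but by -0.41 and -0.67 in the SA arrays, and HYH by 4.36, 1.03 and 0.73. MCCA, at -3.59 in water, had 0.49 and -0.44, and ATG8E, at -1.03, had 1.39 and 1.14. The autophagy median was -0.80 in water, 0.03 in SA 0 h and 0.24 in SA 3 h. Other genes had larger values in the SA arrays. AT1G69570 had 1.19 in water, 2.70 in SA 0 h and 2.76 in SA 3 h, MSRB6 had 1.93, 2.42 and 2.37, and TRXF2 had 0.99, 1.35 and 1.61. PORB was similar in all, at -2.24, -1.85 and -2.06. The SA 0 h arrays had their values without the high UGT76B1 of the SA 3 h arrays. UGT76B1 was 7.92 to 8.64 in SA 3 h, against -0.34 to 0.52 in all other arrays, SA 0 h included. Whether SA changed any of these time differences was not tested.

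**Figure D5:**
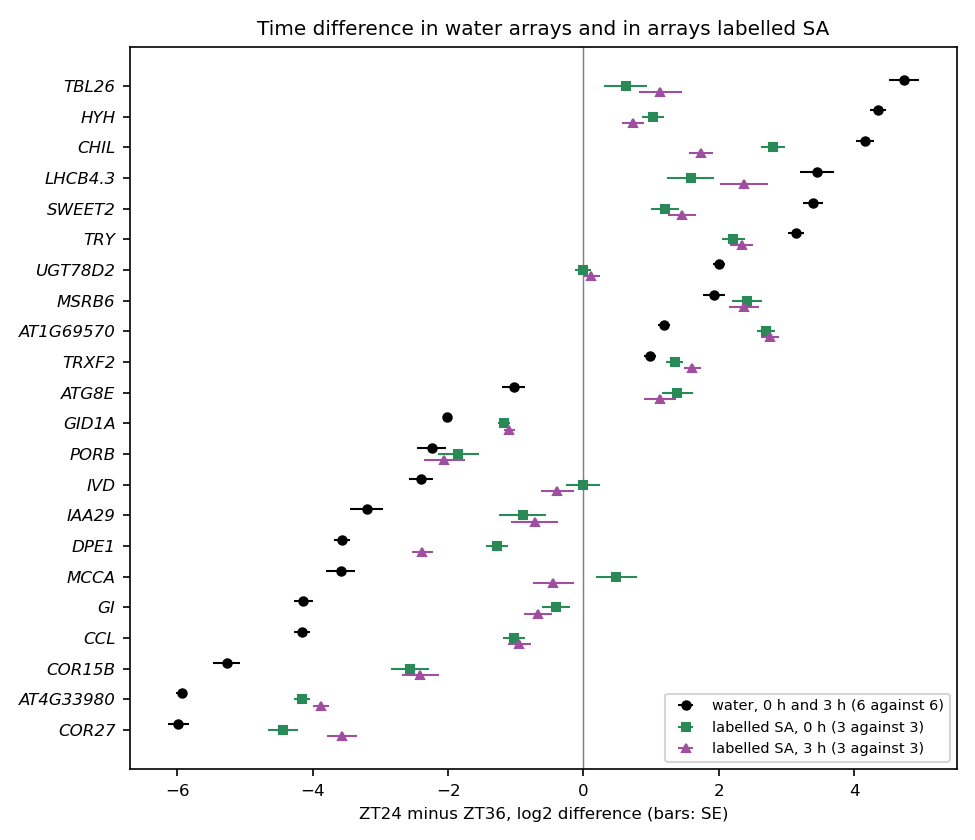
ZT24 minus ZT36 differences (log2, bars are SE) of 22 genes in the water arrays (6 against 6) and in the arrays labelled SA at 0 h and at 3 h (3 against 3 each). COR27 and COR15B are lower at ZT24 in all, while GI and MCCA lie nearer 0 in the SA arrays than in the water arrays.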

How the data were processed

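Arabidopsis leaf RNA was measured on a 1-colour array in 24 samples. The deposited values are log2 intensities made with RMA, per the submitters' processing notes, with no version given. On checking, each probe set has a median of 0 over the 24 arrays, so the authors' log2 table holds no absolute level and no filter on dim probe sets could be applied.

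Of 22810 probe sets, 64 controls were left out. A platform table matched to RefSeq named 13436 by a single gene, and the plain probe set of lowest number was kept per gene. limma 3.58.1 (R 4.3.3) fitted 8 group means on all arrays (16 residual and 4.03 prior degrees of freedom), with Benjamini-Hochberg adjustment over 22746 probe sets at 0.05. Nothing in the labels says whether replicates came from separate plantings, so p-values measure only the spread between these samples, which may be technical. Precision is limited by 3 arrays per group. Group p-values were not computed.

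Members and gene lists were chosen with earlier results of these data known. Named genes were the measured clock genes, the 12 largest non-overlapping differences each way, and up to 5 called members of a list or 4 of a family. On simulated data with 200 of 22746 probe sets changed, the pooled test recovered 53.7% of differences of 0.3, 85.1% of 0.5 and 98.5% of 1. It also made 12 false calls. Far more probe sets were called in the real data (11566), so these shares do not give the sensitivity reached there. Alternatives covered normalization, prior, weights, filters, thresholds, probe set choice and single arrays left out. No sequences were used here.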

Additional observations from a re-analysis of the deposited data

Results flagged for a closer look

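In each arm of 6 arrays, the highest or lowest value of each gene named above except ACLB-1 and ACLA-1 was compared with its nearest neighbour. A gap over 0.625 of the arm's range marked the array as standing apart, which chance gives in about 1 arm of 20, and 19 of 378 arms were marked.

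Of the 11 marked at ZT24, 6 came from replicate 1 of water ZT24 3 h. There DFR was 1.61, BSMT1 1.11, UGT78D2 1.18 and VPS2.2 1.01, each the highest of its arm, while GRX480 at -0.23 and GSTU18 at 0.52 were the lowest. Replicate 3 of the same group gave 4, with COR27 at -1.08, ATG8B at -0.30 and TBL28 at 1.20 the highest and EXLB1 at 1.16 the lowest. In replicate 2 of water ZT24 0 h, ATERDJ2A at -0.25 was the highest.

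At ZT36 the 8 marked arms came from 4 arrays. Replicate 1 of water ZT36 0 h had the highest UGT72E1 (0.23) and ATHM2 (0.41), replicate 2 the highest WRKY53 (0.26) and ATERDJ3B (-0.24), and replicate 3 the highest ETFQO (1.79) and TBL38 (0.044). In replicate 2 of water ZT36 3 h, FIO1 at 0.52 was the highest and AT5G52660 at -0.32 the lowest.

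AT5G49640 differed between the time labels, since its ZT24 minus ZT36 difference was -0.21 in the 3 h arrays and -0.94 in the 0 h arrays, nearer 0 at 3 h by 0.72 ± 0.11 (SE, limma adjusted p = 0.038, adjusted over all probe sets).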

How the results depend on the processing

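The pooled count of 11566 probe sets stayed within 1.5 times under the 12 water arrays alone, with or without a term for time after treatment, quantile normalization, a trended prior, array weights, the stricter threshold of 0.01, omission of the probe sets of lowest SD, and each array left out (10764 to 11576). It was 6295 with 1 probe set per gene, for which 13286 were tested, and 2034 with a size of at least 1. The count for the change between 0 h and 3 h differences was 1 with the 12 water arrays, 4 with quantile normalization, 5 with the trended prior, 187 with array weights, 7 with a block, and 0 to 58 with an array left out. Alternatives for the other contrasts were chosen after seeing the data. For 3 h minus 0 h at ZT24 (0 calls), quantile normalization gave 5 and array weights 7. At ZT36 (2 calls), the water arrays gave 1, quantile normalization 1, array weights 1355, a block 11, and omitted arrays 0 to 705. The SA 3 h count of 6358 became 3443 after quantile normalization. The causes were not tested.

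Of 169 called genes named here, with ACLB-1 and ACLA-1 not examined, 142 kept call and sign under all 22 alternatives. With the 0 h arrays alone 156 were called, and the other 13 kept their sign. STZ changed sign with the 0 h arrays alone (-0.68). Single omitted arrays ended the calls of SHB1 (any of 7), AT4G24450 (any of 4), MSRB9, MSRA5, XTH19, SLY1 and FMA. The labels give no replicate numbers, so no pairing was assumed, and runs of title numbers (1 to 8, 9 to 16, 17 to 24) taken as a replicate block gave 11668 pooled calls. Promoter motif shares were not run, and centred values allow no filter on low means.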
